A study of Mus musculus with 11 samples.

Results

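Open chromatin of esophageal cells from SmoM2 mice was compared with that of wild-type (WT) esophageal cells, region by region. The SmoM2 libraries came from CD1 mice of the genotype Krt5-SmoM2, sorted for high EpCAM, and the WT libraries from wild-type CD1 mice, sorted for low EpCAM, with 3 libraries in each group. EpCAM is a cell adhesion protein of epithelia. The sorting gate therefore changed together with the genotype, and the parts of the difference that go with each cannot be told apart. The labels used here do not give the age or sex of the mice, how the transgene was switched on, or whether the libraries of a group came from separate animals, so that p-values measure the spread between these libraries. The intervals that the authors had called as open on chromosomes 1 to 19 and X in these 6 libraries were merged where they shared 1 bp or more, which gave 113765 regions with a median width of 695 bp. A region was open in a library if an interval of that library overlapped it. A region open in 3 of 3 SmoM2 and 0 of 3 WT libraries is called gained, and one open in 0 of 3 SmoM2 and 3 of 3 WT libraries is called lost. By this rule 8713 regions were gained (7.66% of 113765) and 3902 were lost (3.43%). With the lists cut to equal length 6814 were gained and 4904 lost. The lists that define these sets are the lists described, so counts of gained and lost regions carry no test.

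Smoothened is the membrane protein that passes on the Hedgehog signal: it is held inactive by the receptor Ptch1, and when Hedgehog ligands bind Ptch1 it activates the Gli transcription factors. SmoM2 is a mutant form that is active without ligand, and Krt5 is a keratin whose promoter drives expression in the basal cells of stratified epithelia such as the esophagus. In ATAC-seq a transposase inserts sequencing adapters into accessible DNA, so intervals mark promoters, enhancers and other open sites, not transcription.

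Few of the switching regions lay at a start site, and the promoters of those that did were often poor in CG dinucleotides. Of the gained regions on chromosomes with start sites in the RefSeq table, 63 of 8394 (0.751%) overlapped the window of 250 bases before to 50 bases after a start site, as did 49 of 3771 lost regions (1.30%). Among regions open in all 6 libraries this was 20.9%, and among all regions 9.84%. The 250 bases upstream of each start held a median of 5 CG dinucleotides at the 66 windows overlapped by gained regions, 6 at the 51 windows overlapped by lost regions and 17 at the windows open in all 6 libraries. The median was 2 at windows with no open region and 10 over all 21045 windows of 17274 genes. The gained promoters are represented by 3 of the best-ranked, which show how sparse the CG dinucleotides are. Adra1b encodes the alpha-1B adrenergic receptor, Lmod2 a leiomodin that nucleates actin filaments in muscle, and Pou2af1 a coactivator of octamer factors in B cells. The sequences are the 250 bases before the start site in RefSeq's GRCm38.p6, 5′ to 3′ on the gene's strand, with CG dinucleotides in capitals.
Adra1b (chr11:43901238-43901487, minus strand): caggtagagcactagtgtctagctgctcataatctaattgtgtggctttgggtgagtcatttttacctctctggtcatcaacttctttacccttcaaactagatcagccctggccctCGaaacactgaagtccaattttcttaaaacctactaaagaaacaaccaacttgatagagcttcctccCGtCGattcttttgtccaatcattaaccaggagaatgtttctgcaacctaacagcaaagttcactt
Lmod2 (chr6:24597521-24597770, plus strand): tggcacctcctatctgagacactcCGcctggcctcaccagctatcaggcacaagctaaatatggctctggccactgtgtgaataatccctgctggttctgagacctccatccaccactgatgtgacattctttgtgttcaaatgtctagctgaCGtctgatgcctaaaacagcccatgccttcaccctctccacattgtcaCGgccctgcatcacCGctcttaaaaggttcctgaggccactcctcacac
Pou2af1 (chr9:51213440-51213689, plus strand): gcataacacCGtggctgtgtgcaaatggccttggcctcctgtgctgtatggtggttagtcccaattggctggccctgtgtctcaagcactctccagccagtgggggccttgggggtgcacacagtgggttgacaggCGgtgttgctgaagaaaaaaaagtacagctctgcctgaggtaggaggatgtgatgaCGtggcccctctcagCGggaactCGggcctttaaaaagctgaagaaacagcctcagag

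The lost promoters are represented by Il20, which encodes a cytokine of the interleukin 10 family, Tnfrsf14, a receptor of the TNF receptor family, and Hoxd1, a homeobox factor. Il20 and Tnfrsf14 are as poor in CG dinucleotides as the gained examples, whereas Hoxd1 shows a CG-rich promoter. Promoters with 10 or more CG dinucleotides were 30.3% of the gained and 35.3% of the lost windows, against 78.8% of those open in all 6 libraries. The build, orientation and capitals are as above.
Il20 (chr1:130911297-130911546, minus strand): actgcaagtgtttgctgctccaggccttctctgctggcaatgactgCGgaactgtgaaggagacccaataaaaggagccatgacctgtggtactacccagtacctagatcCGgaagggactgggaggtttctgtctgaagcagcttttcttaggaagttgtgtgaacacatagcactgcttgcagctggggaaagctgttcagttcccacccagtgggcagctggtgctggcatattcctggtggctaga
Tnfrsf14 (chr4:154928078-154928327, minus strand): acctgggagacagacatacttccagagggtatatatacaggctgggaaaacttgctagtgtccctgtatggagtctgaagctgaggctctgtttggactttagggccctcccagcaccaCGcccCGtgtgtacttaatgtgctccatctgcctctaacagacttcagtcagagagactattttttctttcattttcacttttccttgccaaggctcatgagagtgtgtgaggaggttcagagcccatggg
Hoxd1 (chr2:74762730-74762979, plus strand): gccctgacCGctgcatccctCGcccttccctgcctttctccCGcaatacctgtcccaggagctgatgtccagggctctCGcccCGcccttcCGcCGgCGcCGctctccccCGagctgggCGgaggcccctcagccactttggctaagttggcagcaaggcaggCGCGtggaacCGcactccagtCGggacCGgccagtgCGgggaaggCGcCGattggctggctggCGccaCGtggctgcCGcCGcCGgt

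These 3 gained promoters held 3, 4 and 5 CG dinucleotides in the order printed, and the 3 lost ones held 2, 2 and 24. The gained region at Adra1b (chr11:43900719-43901832) ranked at the 92.2, 74.9 and 85.1 percentiles of the −log10 p values within the 3 SmoM2 lists. The gained region at Lmod2 (chr6:24596800-24597862) ranked at 87.2, 77.2 and 83.5, and that at Pou2af1 (chr9:51213580-51214565) at 80.7, 75.2 and 78.7. These best-ranked gained promoter regions were in the upper part of their lists. The lost region at Il20 (chr1:130911309-130912099) ranked at 61.5, 57.5 and 39.4 in the 3 WT lists, that at Tnfrsf14 (chr4:154927282-154928524) at 58.0, 46.0 and 44.6, and that at Hoxd1 (chr2:74762593-74763543) at 37.9, 43.1 and 56.2. The best-ranked lost promoters were nearer the middle of theirs. The Gli motif GACCACCCA, searched on both strands, was in 0 of the 66 gained and 0 of the 51 lost upstream windows, against 0.162% of all windows. At that share so few windows could hardly hold a match, so its absence says little. The AP-1 motif TGANTCA, which reads the same on the other strand, was in 11 of 66 gained windows (16.7%) and 5 of 51 lost windows (9.80%), against 6.17% of all windows. It was in 4.49% of windows open in all 6 libraries, 8.74% of those open in another pattern and 8.23% of those not open. A match describes letters in these windows and no binding.

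The 6 lists differed in length, and the libraries of a group resembled each other more than those of the other group. There were 77770, 74157 and 85861 open regions in the SmoM2 libraries, against 66939, 76060 and 74916 in the WT libraries. The share of regions open in both of a pair of libraries among those open in either was 0.748 to 0.774 within groups and 0.578 to 0.631 between a SmoM2 and a WT library. How many reads lie behind an interval is unknown, since no source used here states read numbers. Intervals at 4 single-copy Y-linked genes numbered 9, 9 and 9 in the SmoM2 libraries, against 5, 0 and 0 in the WT libraries, so the presence of Y-linked signal changed with the group in all but WT library 1. The 10 lists of cell type markers had 3 to 10 loci tested, and none had more than 2 called in one direction. Over all loci tested 5.90% were higher and 5.63% lower. The endothelial list had the most calls, with 2 higher and 1 lower of 8. Their part in the results was not tested. Cdx1 of the columnar list, Lum of the fibroblast list, Itgax of the immune list and Tagln of the smooth muscle list had no region in any of the 6 libraries. The basal keratinocyte loci had 90, 86 and 114 open regions in SmoM2 and 84, 92 and 92 in WT, with 0 of 8 loci called. The columnar list had 32, 30 and 36 in SmoM2 and 31, 31 and 32 in WT, and Epcam itself had 11, 11 and 10 against 9, 10 and 9. The list for melanocytes and mast cells stood higher, at 28, 25 and 28 in SmoM2 and 13, 17 and 18 in WT. Most of that difference lay at Kit, which encodes the receptor for stem cell factor and was open at 9, 6 and 9 regions in SmoM2 and at 0 in each WT library. In bulk samples, fewer cells of a type and a weaker signal per cell cannot be told apart.

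Between the fully switching sets and the shared regions lay many regions that missed the rule by 1 library. Regions open in 3 SmoM2 and 1 WT libraries numbered 3054, and those open in 2 SmoM2 and 0 WT libraries 5653. On the other side 2759 regions were open in 1 SmoM2 and 3 WT libraries, and 4228 in 0 SmoM2 and 2 WT libraries. The set open in all 6 libraries was the biggest, with 47410 regions (41.7%). Switching regions ranked low among the intervals of their libraries. The median percentile of gained regions was 40.6, 31.5 and 41.0 in the SmoM2 libraries, and that of lost regions 26.8, 31.3 and 30.9 in the WT libraries. Regions open in all 6 had medians of 63.0 to 70.7. Between 0.275% and 1.29% of gained regions ranked above the 90 percentile of a SmoM2 list. Leaving out a library loosens the rule, so the number of lost regions rose each time. It was 6289 without WT library 1 and 4341 to 5569 without any other library, against 3902 with all libraries.

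**Figure D1:**
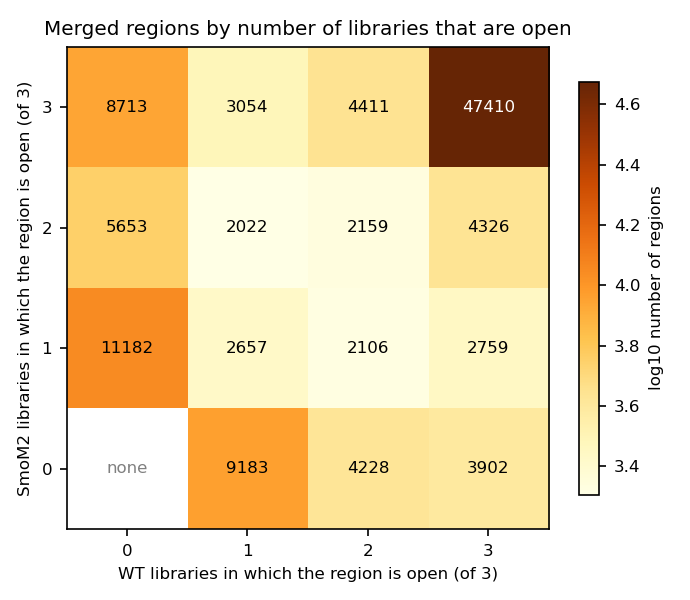
Number of merged regions by how many SmoM2 libraries (vertical axis, of 3) and WT libraries (horizontal axis, of 3) are open, with the color on a log10 scale. The gained corner holds 8713 regions and the lost corner 3902, while 47410 regions are open in all 6 libraries.

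Gained regions followed each other along the chromosomes more often than their share among all regions, and so did lost regions. The next region downstream was also gained for 1582 of 8713 gained regions (18.2%), which is 2.37 times the 7.66% of gained regions among all. The next region was also lost for 350 of 3902 lost regions (8.97%), which is 2.62 times the 3.43% of lost regions among all. Opposite neighbours were less frequent than the background share. A gained region was followed by a lost one in 1.77% of cases, against 3.43%, and a lost region by a gained one in 3.97%, against 7.66%. Runs of at least 2 consecutive gained regions numbered 1124 and held 2706 regions (31.1% of those gained), and 285 runs of 3 or more held 1028. Runs of at least 2 lost regions numbered 297 and held 647 regions (16.6% of those lost), and 40 runs of 3 or more held 133. No chromosome dominated: gained regions made up 6.0% (chromosome 11) to 9.35% (chromosome 13) of a chromosome's regions, and lost ones 2.68% (chromosome 16) to 4.38% (chromosome 9).

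**Figure D2:**
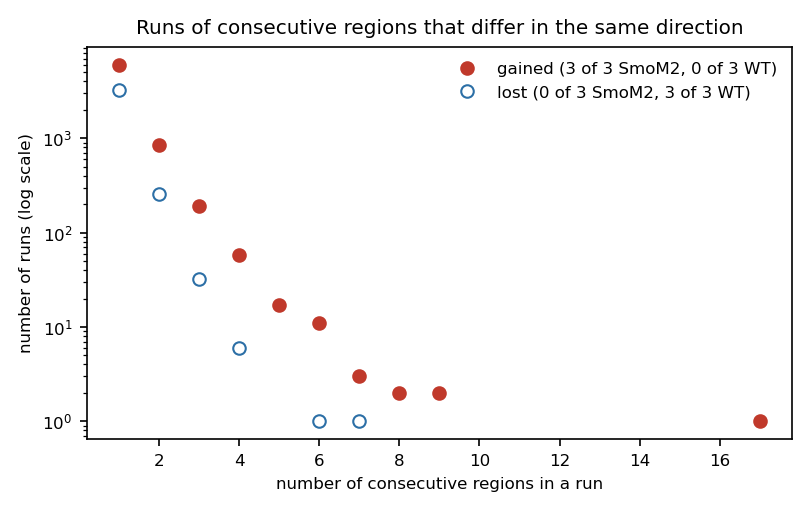
Number of runs (log scale) by the number of consecutive regions in a run, for gained and for lost regions. The longest gained run has 17 regions and the longest lost run 7.

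Of the 5 longest gained runs 3 lay wholly more than 100 kb from a gene, 1 inside Naaladl2 and 1 in and beside Tmem26. The run of 17 gained regions spanned 600 kb (chr2:108096973-108697447, GRCm38) in a stretch without protein-coding genes, 395 to 855 kb from the nearest, Kcna4 and Mettl15. Kcna4 encodes a voltage-gated potassium channel and Mettl15 a mitochondrial methyltransferase. In the libraries of Krt5-SmoM2 mice with a floxed Sox9 gene (SmoM2-Sox9cKO, also high EpCAM), which the rule did not use, 10, 13 and 8 of these 17 regions were open. A run of 9 gained regions spanned 220 kb (chr4:29084586-29304400) at 117 to 336 kb from Epha7, which encodes an ephrin receptor. Another run of 9 lay wholly within Naaladl2 (chr3:24314791-24630577), a gene related to glutamate carboxypeptidases. Runs of 8 lay next to and inside Tmem26 (chr10:68684031-68795829) and 217 to 627 kb from Ctnna2, the alpha-catenin of neurons (chr6:76253923-76664196). In these 4 shorter runs, 1 to 8 regions were open in any one SmoM2-Sox9cKO library.

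The run of 7 lost regions spanned 487 kb (chr7:77285651-77772252) at 161 to 491 kb from Agbl1 and Ntrk3. Agbl1 encodes a deglutamylase of the cytosolic carboxypeptidase family and Ntrk3 the neurotrophin receptor TrkC. In SmoM2-Sox9cKO libraries 1, 0 and 0 of these regions were open. A run of 6 lost regions (chr11:9958775-10030253) lay 274 to 345 kb beyond Abca13, an ABC transporter gene, and 0 of the 6 were open in each SmoM2-Sox9cKO library. Runs of 4 lost regions lay inside Rora (chr9:69054627-69082074), which encodes a retinoid-related orphan receptor, inside Oprm1 (chr10:6814161-6845331), the mu opioid receptor gene, and inside Parn (chr16:13572481-13613027), which encodes a poly(A)-specific ribonuclease. The surroundings of Abca13 changed in both directions. Inside the gene 6 of 10 regions were gained and 0 lost, with 9, 6 and 7 open in SmoM2 and 0, 0 and 1 in WT. Of the 7 regions more than 100 kb outside it, 6 were lost, with 0, 0 and 0 open in SmoM2 and 6, 7 and 7 in WT.

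The number of open regions was also compared in fixed windows of 1 Mb, which do not depend on gene models. These counts come from the same open calls that define gained and lost regions, so a call is no separate support for them. A window closed in 1 group can pass the mean of at least 5 through the other group alone. The windows named below were picked for their change or for their gained or lost regions, so their values describe the pick. Of 2015 windows with a mean of at least 5 open regions, 410 were higher in SmoM2 (20.3%) and 369 were lower (18.3%) by limma with Benjamini-Hochberg adjustment at 0.05. Without scaling to the total of each library the split was 437 higher and 81 lower, or 84.4% higher among the calls in place of 52.6%. Neighbouring windows tended to share a call: the next window was also higher for 114 of 351 higher windows (32.5%), against 20.3% of all windows, and also lower for 82 of 322 lower windows (25.5%), against 18.3%. The next window was called the opposite way for 14.0% of higher and 12.4% of lower windows. Gained regions were in 1923 of 2447 windows, lost regions in 1503, and both in 1317. Of the more numerous gained regions 1942 lay in 155 windows with 10 or more, and of the lost regions 112 lay in 11 such windows. Where Y-linked signal entered the fit as a term with 2 levels, 262 windows were higher and 185 lower. In that fit WT library 1 stands alone for WT with Y-linked signal.

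In some windows many regions were open in SmoM2 and none in WT. In window chr2:108000001-109000000, which contains the run of 17 and no protein-coding gene, 28, 24 and 24 regions were open in the SmoM2 libraries and 0, 0 and 0 in WT (limma, adjusted p = 2.05e-10). Window chr13:10000001-11000000, at Chrm3, which encodes the M3 muscarinic acetylcholine receptor, had 25, 21 and 30 open regions in SmoM2 and 0, 0 and 0 in WT (adjusted p = 2.05e-10). Window chr6:77000001-78000000, at Ctnna2 and Lrrtm1, a gene for a synaptic leucine-rich repeat protein, had 25, 20 and 30 in SmoM2 and 0, 1 and 0 in WT (adjusted p = 1.14e-08). In these 3 windows no WT library exceeded 1 open region. Window chr9:6000001-7000000, at Pdgfd, which encodes a platelet-derived growth factor, had 18, 11 and 14 in SmoM2 and 0, 0 and 0 in WT, and the gene-free window chr4:30000001-31000000 had 12, 12 and 12 against 0, 0 and 0. In all, 44 windows were closed in every WT library and open in every SmoM2 library, and 6 the other way round. With at least 5 open regions in each library of the open group these numbers were 10 and 1. The 1 window was chr1:110000001-111000000, with none open in any SmoM2 library and 6, 6 and 5 in WT.

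Window chr7:77000001-78000000, which holds the run of 7 lost regions, had the largest decrease among the called windows whose groups did not overlap, with 0, 1 and 0 open regions in SmoM2 and 11, 12 and 9 in WT (log2 change -4.07 ± 0.42, SE, adjusted p = 1.31e-06).

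The windows with the most gained regions, by number and not by share, included the one that contains Ptch1 and one beside Sox9. Gained were 21 of 110 regions in the window with Ptch1 and 21 of 129 in that beside Sox9. By comparison, 22 of 30 were gained in window chr2:108000001-109000000, 22 of 49 in the window at Zeb2 and 21 of 88 in that at Wif1. Window chr2:45000001-46000000, into which Zeb2 reaches, held 22 gained regions, with 41, 32 and 40 open in SmoM2 and 6, 12 and 6 in WT (log2 change 2.11 ± 0.18, SE). Zeb2 encodes a zinc finger repressor best known from epithelial to mesenchymal transition. Window chr13:63000001-64000000 contains Ptch1, the Hedgehog receptor and a direct target of the pathway, and held 21 gained and 5 lost regions. Of the 21 gained regions 15 were nearest to Ercc6l2, 3 to Ptch1 and the rest to other genes. Its open regions numbered 85, 87 and 94 in SmoM2 and 56, 60 and 62 in WT (log2 change 0.45 ± 0.06). Window chr10:121000001-122000000 held 21 gained regions, 10 of them at Wif1, which encodes a secreted Wnt inhibitor, and had 74, 68 and 70 open regions in SmoM2 and 34, 47 and 41 in WT. Window chr11:113000001-114000000 held 21 gained regions, 16 of them nearest to Slc39a11, a zinc transporter gene, and starts 212 kb beyond Sox9. It had 95, 99 and 105 open regions in SmoM2 and 67, 75 and 73 in WT (log2 change 0.35 ± 0.06, adjusted p = 0.000106).

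Windows with 10 or more lost regions held 10 or 11 of them. Window chr8:116000001-117000000 held 11, nearest to Dynlrb2 (6), which encodes a dynein light chain, Cdyl2 (4) and Maf (1), and had 14, 20 and 16 open regions in SmoM2 and 36, 38 and 34 in WT (log2 change -1.23 ± 0.13). Windows chr9:68000001-69000000 and chr9:69000001-70000000 together cover Rora and held 10 and 11 lost regions. The first had 4, 7 and 5 open regions in SmoM2 and 18, 23 and 20 in WT, and the second 31, 29 and 29 against 40, 47 and 47. Window chr15:30000001-31000000, at Ctnnd2, the delta-catenin gene, held 10 lost regions, with 5, 4 and 5 open in SmoM2 and 16, 21 and 20 in WT (log2 change -2.04 ± 0.17). Window chr2:8000001-9000000, gene-free and nearest to Gata3, had 2, 1 and 3 in SmoM2 and 8, 8 and 10 in WT. Window chr12:27000001-28000000, at Sox11, had 0, 2 and 2 in SmoM2 and 3, 14 and 10 in WT, and its call ended with Y-linked signal as a term.

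Gained and lost regions both lay away from gene ends, and gained regions lay more often than lost ones in long genes and gene deserts. Within 1 kb of a gene end were 3.35% of gained and 4.82% of lost regions, against 26.0% of regions open in all 6 libraries and 14.4% of all regions. More than 100 kb from any protein-coding gene body were 17.7% of gained and 12.8% of lost regions, against 6.97% and 10.1%. Gene bodies over 300 kb held 14.6% of gained and 10.8% of lost regions, against 6.81% and 8.88%. The share in any gene body was 51.8% for gained and 50.9% for lost regions, against 63.2% and 57.0%. The median distance to the nearest start site was 68.6 kb for gained and 48.7 kb for lost regions, against 24.6 kb for regions open in all 6 and 35.6 kb for all regions. Within gene bodies over 300 kb with a known start, gained regions were spread evenly: split into 3 equal stretches from the start, the bodies held 32.2%, 35.9% and 31.8% of them.

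Shares over all open regions of a library moved the same way, but 3 against 3 libraries cannot pass 0.05: the smallest exact two-sided permutation p is 0.1. The shares come from the same open calls and include the gained and lost regions, so they are no separate support for the positions of those sets. Open regions more than 100 kb from a gene made up 9.41 ± 0.363% in SmoM2 and 8.07 ± 0.30% in WT (SD, n = 3 each), without overlap between the groups (exact permutation p = 0.1, 0.133 adjusted over 4 shares). Those in gene bodies over 300 kb made up 8.57 ± 0.290% in SmoM2 and 7.49 ± 0.184% in WT (exact permutation p = 0.1, adjusted 0.133). Those within 1 kb of a gene end made up 18.1 ± 0.845% in SmoM2 and 19.6 ± 0.707% in WT (exact permutation p = 0.1, adjusted 0.133), and this difference of -1.52 percentage points was -0.493 with lists of equal length. The share in gene bodies was 59.2 ± 0.228% in SmoM2 and 59.6 ± 0.431% in WT (exact permutation p = 0.2, adjusted 0.2), and this difference changed sign with lists cut to equal length (0.0272 percentage points).

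Each region within 100 kb of a protein-coding gene body was assigned to the nearest gene, and the number of open regions per locus was tested with limma. A higher count means that more separate regions were open, and says nothing of their signal or of expression. The counts come from the same open calls that define gained and lost regions, so a call is no separate support for those sets. A locus closed in 1 group can pass the mean of at least 1 through the other group alone. Of 15378 loci with a mean of at least 1 open region, 908 were higher in SmoM2 (5.90%) and 866 were lower (5.63%). The groups did not overlap at 2601 loci (16.9%), among them 1639 of the 1774 called. Counts were scaled to the total of each library, and the median log2 change over all loci was -0.13, which is also the value of a locus with the same count in all 6 libraries. Without scaling 757 loci were higher and 410 lower, or 64.9% higher among the calls in place of 51.2%. The number of higher loci was 578 without SmoM2 library 1 and 537 without SmoM2 library 2, against 908 with all libraries, and 420 higher and 353 lower loci were called with Y-linked signal as a term. At 198 loci all WT libraries were closed and all SmoM2 libraries open, and at 127 the reverse held. With at least 5 open regions in each library of the open group there were 7 and 1, chosen here after their values were seen. The 7 were Adgrl4, Kcnip4, Kit, Pdgfd, Tmem26, Trap1a and Wdr72, and the 1 was Oprm1, with none in any SmoM2 library and 5, 5 and 6 in WT. Pdgfd had 15, 10 and 12 open regions in SmoM2 and Adgrl4, a latrophilin-like receptor of endothelium, had 8, 8 and 7, each against 0 in every WT library.

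Long genes took up more of the gained regions. By the length of the assigned gene, gained regions made up 4.69% of regions for genes under 10 kb and 12.2% for genes over 300 kb, and lost regions 2.72% and 4.29%. Loci called higher were 3.06% of genes under 10 kb and 28.0% of genes over 300 kb, and loci called lower 3.95% and 11.5%. Long genes also have more regions, which makes a call easier. Among loci with 10 to 19 regions, 28.3% of 113 genes over 300 kb and 10.1% of 1969 shorter genes were higher. Among loci with 20 to 39 regions the shares were 36.1% of 144 and 8.78% of 649. Calls in the lower direction were also more frequent among the long genes. They were 18.6% against 7.62% with 10 to 19 regions, and 12.5% against 6.78% with 20 to 39. Among the 7173 gained regions that had a locus, 1639 were at 238 loci with at least 5 of them, and among the smaller number of 3403 lost regions, 217 were at 33 such loci. Both kinds occurred at 927 loci.

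**Figure D3:**
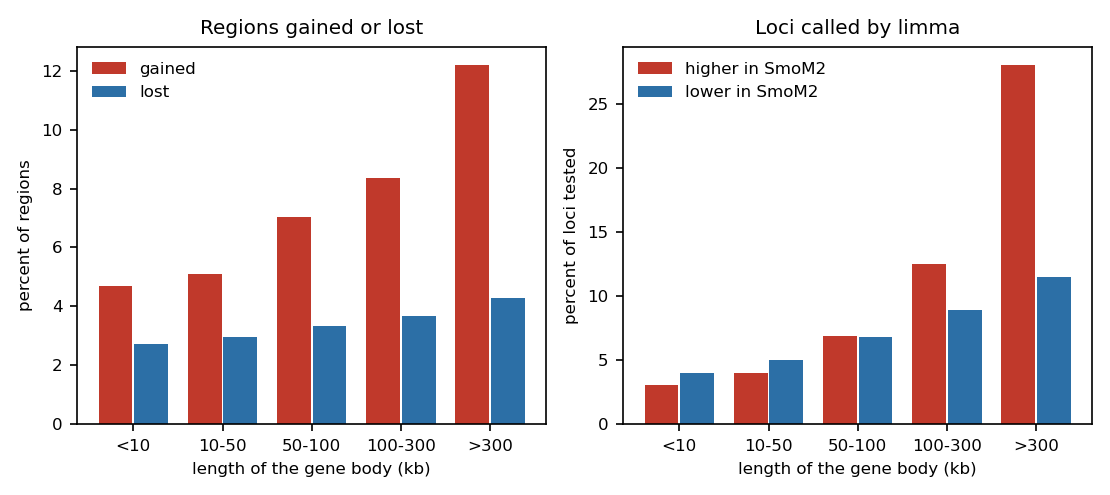
Left, percent of regions gained or lost by the length of the assigned gene body (kb). Right, percent of tested loci called higher or lower in SmoM2 by limma. The higher share runs from 3.06% under 10 kb to 28.0% over 300 kb, and the lower share from 3.95% to 11.5%.

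The 10 loci with the most gained regions held 13 to 20 each. These loci were picked for their gained regions, so their values describe the pick, while the adjusted p is over all loci. Kcnma1 encodes the pore of the large-conductance calcium-activated potassium channel. It had 20 gained and 0 lost regions of 44, with 36, 27 and 37 open in SmoM2 and 3, 5 and 6 in WT (log2 change 2.62 ± 0.19, SE, adjusted p = 0.000212). Ptprd, a receptor tyrosine phosphatase of synapses, had 19 gained regions of 35, with 28, 23 and 30 open in SmoM2 and 1, 2 and 1 in WT (3.82 ± 0.19, adjusted p = 2.83e-05). Clstn2, a calsyntenin, had 18 gained regions, with 32, 21 and 31 open in SmoM2 and 2, 2 and 1 in WT. Ctnna2 had 16, with 26, 21 and 31 open in SmoM2 and 3, 3 and 3 in WT. In these 4 loci the SmoM2 library with the fewest open regions was library 2, and it too stood above every WT library.

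At other loci the WT libraries kept a larger set of open regions. Nrxn3, a neurexin, had 15 gained regions and 1 lost, with 39, 31 and 28 open in SmoM2 and 7, 13 and 9 in WT. Ercc6l2, a helicase-like repair gene beside Ptch1, had 14 gained regions, with 24, 22 and 25 in SmoM2 and 6, 6 and 7 in WT (log2 change 1.70 ± 0.09). Cdk14, a cyclin-dependent kinase gene, had 14, with 30, 30 and 31 in SmoM2 and 11, 16 and 14 in WT. Dpyd, which encodes the pyrimidine-degrading enzyme dihydropyrimidine dehydrogenase, had 14 gained and 2 lost, with 44, 36 and 39 in SmoM2 and 16, 23 and 16 in WT. Cdh13, the T-cadherin gene, had 13 gained and 1 lost, with 32, 35 and 42 in SmoM2 and 19, 19 and 18 in WT. Slc39a11 had 13 gained and 1 lost, with 49, 50 and 51 in SmoM2 and 31, 32 and 34 in WT (log2 change 0.50 ± 0.07). The groups did not overlap at any of these 6 loci, while the calls of Nrxn3 and Cdh13 ended with lists of equal length and that of Slc39a11 with Y-linked signal as a term.

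Other loci with large changes held fewer regions. Wif1 had 11, 11 and 13 open regions in SmoM2 and 1, 1 and 1 in WT (log2 change 2.89 ± 0.12, adjusted p = 1.56e-05). Rgs7, a regulator of G protein signaling, had 18, 10 and 16 in SmoM2 and 2, 1 and 1 in WT (2.93 ± 0.29), and Chrm3 had 13, 11 and 16 against 1, 2 and 1 (2.82 ± 0.20). Ugt8a, which makes the galactolipid of myelin, had 14, 14 and 15 in SmoM2 and 0, 1 and 1 in WT, with 11 gained regions of 16.

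Rora was the locus with the most lost regions. It had 20 lost and 0 gained regions of 62, with 14, 19 and 18 open in SmoM2 and 42, 52 and 49 in WT (log2 change -1.59 ± 0.12, adjusted p = 0.000292). The next loci had at most 9 lost regions. Ctnnd2 had 9, with 5, 4 and 5 open in SmoM2 and 15, 20 and 19 in WT (-1.96 ± 0.10, adjusted p = 4.35e-05). Trabd2b, an inhibitor of Wnt proteins, had 9, with 5, 3 and 8 in SmoM2 and 17, 22 and 20 in WT. Prickle2, a planar cell polarity gene, had 8 lost and 1 gained, with 8, 11 and 8 in SmoM2 and 19, 23 and 22 in WT. Stk39, a kinase of ion transport, had 9 lost and 2 gained, with 17, 18 and 20 in SmoM2 and 25, 27 and 26 in WT. The groups did not overlap at these 5 loci.

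Slit3, a guidance ligand gene, had 9 lost and 1 gained, with 24, 18 and 21 in SmoM2 and 28, 33 and 32 in WT. Pde7b, a cyclic AMP phosphodiesterase gene, had 7 lost regions, with 1, 2 and 6 in SmoM2 and 14, 17 and 16 in WT (-2.60 ± 0.43, adjusted p = 0.00899). The calls of Slit3 and Pde7b ended with Y-linked signal as a term, and that of Slit3 also with lists of equal length. Rgs3 had 7 lost regions and 1 gained, with 26, 25 and 30 in SmoM2 and 32, 35 and 33 in WT. Cacna2d3, a calcium channel subunit gene, had 7 lost and 2 gained regions and overlapping groups, with 28, 22 and 34 in SmoM2 and 32, 37 and 34 in WT. Without scaling the calls of Trabd2b, Slit3, Pde7b, Rgs3 and Cacna2d3 ended, and that of Cacna2d3 also without WT library 1 or WT library 2 and with Y-linked signal as a term. Macrod2, a gene for an ADP-ribosylhydrolase, had 7 gained and 7 lost regions and was not called, with 53, 36 and 40 in SmoM2 and 37, 47 and 39 in WT. Large decreases from fewer regions were seen at Gfra1, a GDNF receptor (2, 2 and 2 in SmoM2, 11, 8 and 11 in WT), and at Dynlrb2 (1, 1 and 1 in SmoM2, 6, 8 and 7 in WT). Sox11, a SoxC transcription factor, had no open region in any SmoM2 library and 2, 6 and 5 in WT, a call that ended with a reach of 20 kb.

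**Figure D4:**
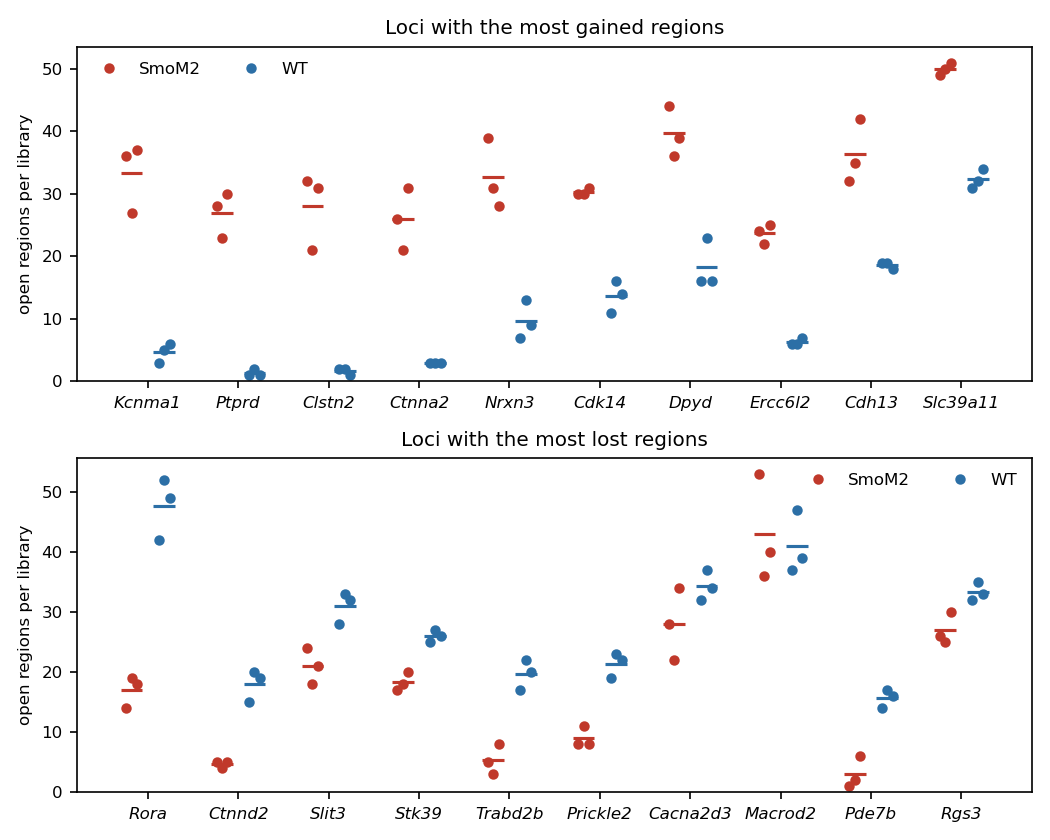
Open regions per library (points) and group means (bars) at the 10 loci with the most gained regions (top) and the 10 with the most lost regions (bottom), SmoM2 left of WT at each gene. Kcnma1 has 27 to 37 in SmoM2 and 3 to 6 in WT, Rora has 14 to 19 in SmoM2 and 42 to 52 in WT, and the points of Macrod2 and Cacna2d3 overlap.

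Gene families defined by their symbols differed in the share of their regions that switched. Over all regions with a locus, 7.01% were gained and 3.33% lost, and over all loci tested 5.90% were higher and 5.63% lower. Synaptic adhesion genes (neurexins, neuroligins, contactins and leucine-rich repeat proteins) had 40 of 217 regions gained (18.4%) and 10 lost (4.61%), and 6 of 18 loci tested were higher and 3 lower. Without Nrxn3 the gained share was 14.5%. Lrrtm1 had 2, 2 and 3 open regions in SmoM2 and 0 in each WT library, and Nlgn1, a neuroligin, had 4, 2 and 4 in SmoM2 and 0, 0 and 1 in WT, a call that ended without SmoM2 library 3 or WT library 1, with lists of equal length, without scaling and with Y-linked signal as a term. Receptor tyrosine phosphatases had 52 of 304 regions gained (17.1%) and 9 lost (2.96%), with 4 loci higher and 1 lower of 19. Ptprd alone held 19 of these, and without it 12.3% were gained. Cadherins and protocadherins had 49 of 333 gained (14.7%) and 12 lost (3.60%). Cdh11, a mesenchymal cadherin, had 12, 11 and 9 in SmoM2 and 2, 3 and 2 in WT (log2 change 1.86 ± 0.19), while Cdh19, a cadherin of glial cells, had none in any SmoM2 library and 5, 5 and 4 in WT.

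Potassium channels had 81 of 634 regions gained (12.8%) and 18 lost (2.84%), with 10 loci higher and 8 lower of 76, and without Kcnma1 10.3% were gained. Kcnip4, a channel-interacting protein, had 20, 10 and 9 in SmoM2 and 0 in each WT library. Kcnb2, a delayed rectifier, had 13, 12 and 13 in SmoM2 and 0, 2 and 1 in WT, a call that ended without scaling. RGS proteins had 29 of 204 gained (14.2%) and 11 lost (5.39%), and ABC transporters 45 of 350 gained (12.9%) and 9 lost (2.57%). ADAM, ADAMTS and ADAMTS-like genes had 34 of 257 gained (13.2%) and 9 lost (3.50%). Of these 11 gained and 5 lost regions were at Adamtsl1, an ADAMTS-like gene. Of 42 ABC transporter loci tested 4 were higher and 0 lower. Abca13 had 10, 7 and 7 open regions in SmoM2 and 0, 0 and 1 in WT, and Abcc12 had 13, 11 and 10 in SmoM2 and 3, 3 and 4 in WT, a call that ended with a reach of 20 kb. Glutamate receptors went both ways, with 5 loci higher and 2 lower of 21. Grin3a had none in any SmoM2 library and 4, 3 and 4 in WT.

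Sox factors had 27 of 217 regions gained (12.4%) and 5 lost (2.30%), with 2 loci higher and 2 lower of 18. Sox5, a SoxD factor, had 29, 22 and 27 in SmoM2 and 10, 17 and 13 in WT (log2 change 0.83 ± 0.15), a call that ended without scaling. Of 38 families with at least 100 regions, 2 had more lost than gained regions, nuclear receptors and Hox genes, and with lists of equal length 5 did, with calcium and sodium channels, FGF genes, and LIM, Irx, Pax and sine oculis factors beside them. With stricter intervals 3 did, genes with histone-like symbols being the other. Among nuclear receptors 40 of 515 were lost (7.77%) and 29 gained (5.63%), with 8 loci lower and 4 higher of 44. Of the lost ones 20 belonged to Rora, and without it 4.42% were lost. Esr1, the estrogen receptor gene, had 11, 9 and 10 in SmoM2 and 14, 19 and 16 in WT (-0.80 ± 0.11), a call that ended without scaling and with Y-linked signal as a term. Hox genes had 2 of 113 gained (1.77%) and 4 lost (3.54%), and zinc finger proteins 61 of 1381 gained (4.42%) and 36 lost (2.61%). Genes with histone-like symbols had 6 of 202 gained (2.97%) and 5 lost (2.48%), and T-box factors 0 of 65 in either direction. Of 11 T-box loci tested 0 were higher and 2 lower (18.2%, against 5.63% of all loci), Eomes and Tbx15. Each had 2, 2 and 3 open regions in SmoM2 and 3, 6 and 4 in WT, with overlapping groups, and both calls ended without scaling. The histone-like symbols also take in H2-Ab1, an MHC class II gene, with 1 of the gained regions. The median gene was 74.1 kb long for synaptic adhesion genes and 151 kb for receptor phosphatases, against 5.27 kb for Hox genes and 0.782 kb for genes with histone-like symbols. Sox factors, with 12.4% gained, had a median of 5.17 kb. Sox5, 954 kb long, held 9 of their gained regions, and without it 9.78% were gained. Families and gene length were not told apart.

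**Figure D5:**
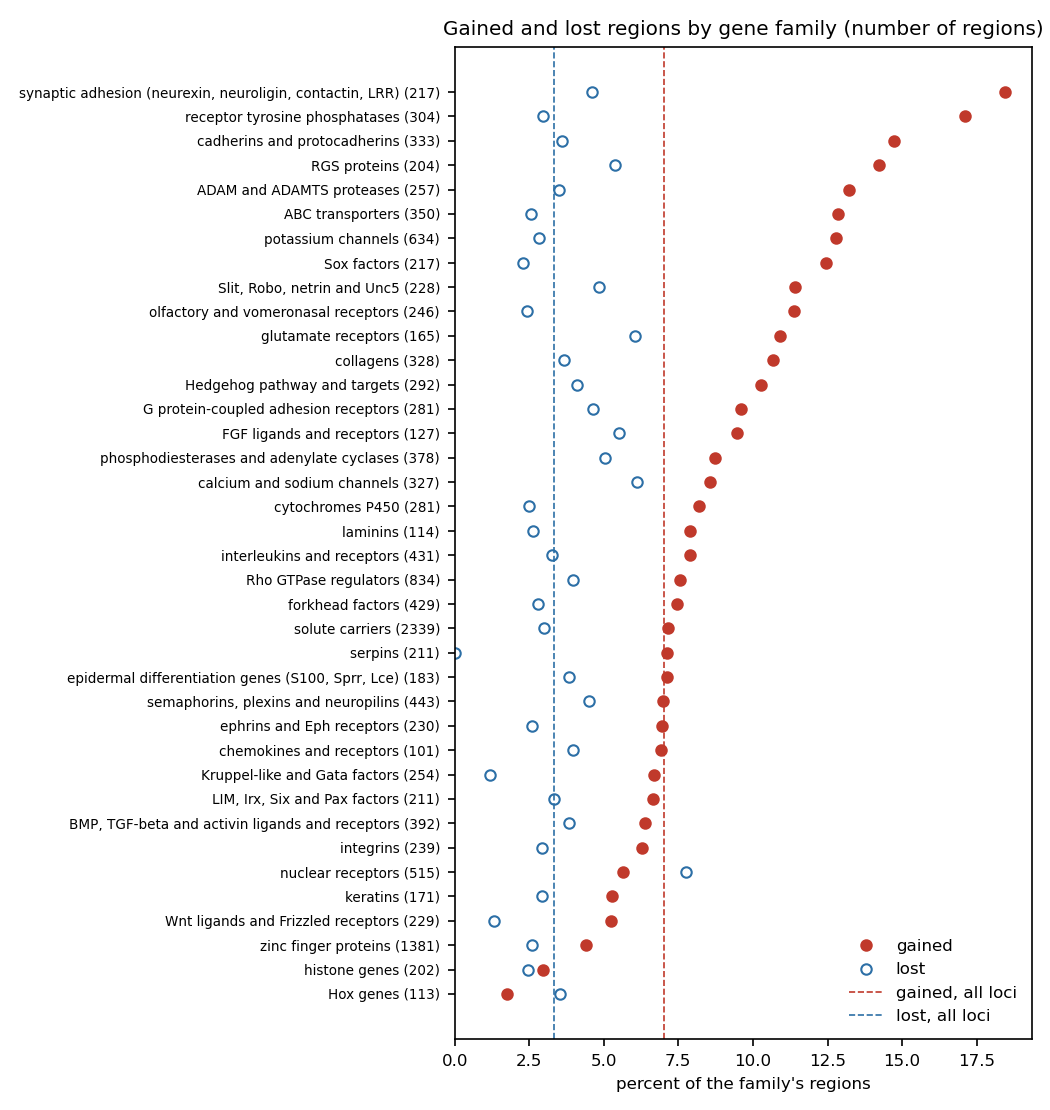
Percent of regions gained (filled) and lost (open) for gene families with at least 100 regions, with the number of regions in brackets; dashed lines mark all loci, at 7.01% gained and 3.33% lost. Synaptic adhesion genes stand highest for gained regions at 18.4%, and nuclear receptors highest for lost regions at 7.77%.

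Loci of the Hedgehog pathway were called at about the share of all loci. Of 292 regions at 27 pathway and target genes 30 were gained (10.3%, against 7.01% of all regions with a locus) and 12 lost (4.11%, against 3.33%). Bcl2 held 6 of the gained regions, and without it 8.76% were gained. With lists of equal length 7.97% were gained and 7.57% lost, against 6.25% and 4.79%. Of 26 loci tested 2 were higher (7.69%, against 5.90% of all loci) and 1 lower (3.85%, against 5.63%). Ptch1 had 13, 12 and 15 open regions in SmoM2 and 8, 11 and 10 in WT, without overlap, and missed the threshold (log2 change 0.32 ± 0.09, adjusted p = 0.0694). Gli2, the main activating Gli factor, had 26, 25 and 30 in SmoM2 and 18, 21 and 22 in WT (0.28 ± 0.06, adjusted p = 0.0324). Bcl2, an inhibitor of apoptosis and Gli target, had 14, 11 and 15 in SmoM2 and 7, 9 and 9 in WT (0.52 ± 0.11, adjusted p = 0.0213). Ccnd1, the cyclin D1 gene, had 7, 7 and 7 in SmoM2 and 8, 9 and 9 in WT (-0.41 ± 0.10, adjusted p = 0.0328). The calls of Gli2 and Ccnd1 ended without any one of the 6 libraries, and that of Bcl2 without SmoM2 library 1, SmoM2 library 3 or WT library 1. The calls of Gli2 and Bcl2 also ended with lists of equal length, without scaling and with Y-linked signal as a term. Gli1, a direct target and activator, had 3, 3 and 3 in SmoM2 and 2, 2 and 3 in WT (adjusted p = 0.435). Hhip, a secreted Hedgehog antagonist, had 2, 1 and 2 in SmoM2 and 2, 3 and 1 in WT. Sox9, a progenitor factor, had 9, 10 and 11 in SmoM2 and 11, 7 and 9 in WT (0.04 ± 0.19, adjusted p = 0.893). Trp63, which encodes the basal cell factor p63, had 34, 29 and 41 in SmoM2 and 30, 34 and 29 in WT, and Krt5 had 3, 2 and 4 against 3, 4 and 2. Krt8, a keratin of simple epithelia, had 1 open region in each library.

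Markers of other cell types moved at single loci. Twist2, a mesenchymal factor, had 6, 6 and 7 open regions in SmoM2 and 0, 1 and 1 in WT (log2 change 2.59 ± 0.37, adjusted p = 0.00614), while the fibroblast list as a whole had 22, 21 and 20 in SmoM2 and 19, 20 and 19 in WT. The endothelial list had 54, 54 and 64 in SmoM2 and 48, 56 and 56 in WT. Within it Cdh5, the cadherin of endothelium, had 7, 6 and 7 in SmoM2 and 3, 4 and 4 in WT, Emcn had 5, 5 and 7 against 3, 3 and 3, and Flt1, a VEGF receptor, had 12, 15 and 14 against 18, 22 and 21. The log2 change at Cdh5 was 0.66 ± 0.12 and turned to -0.13 with a reach of 20 kb in place of 100 kb. The immune list had 16, 10 and 13 in SmoM2 and 10, 9 and 11 in WT, with Ptprc, which encodes CD45, at 6, 1 and 2 against 0 in each WT library. The smooth muscle list had 13, 10 and 15 in SmoM2 and 15, 17 and 14 in WT, and Acta2 had 3, 2 and 3 against 5, 6 and 4. The list for Schwann cells and neural crest had 20, 20 and 20 in SmoM2 and 22, 28 and 29 in WT, with Hand2 at 1, 4 and 4 against 8, 9 and 11. The suprabasal list had 65, 60 and 71 in SmoM2 and 58, 59 and 61 in WT, and Lor, a protein of the cornified envelope, had 2, 2 and 3 against 4, 4 and 4. The Merkel cell list had 7, 5 and 5 in SmoM2 and 4, 3 and 3 in WT. In the columnar list Cldn2, a claudin, had 2, 2 and 2 in SmoM2 and 4, 4 and 4 in WT. With Y-linked signal as a term the calls of Emcn, Flt1, Ptprc, Acta2, Hand2 and Lor ended, and without scaling those of Twist2, Flt1, Ptprc, Acta2, Hand2 and Lor. The call of Emcn also ended without SmoM2 library 2 or 3 or WT library 2 or 3, that of Acta2 without SmoM2 library 2 or 3 or WT library 1 or 2, and that of Hand2 without WT library 1 or 3. Lists of equal length ended the calls of Ptprc, Flt1, Acta2 and Lor, stricter intervals those of Ptprc and Emcn, and a reach of 20 kb or a coverage of 25% that of Hand2.

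Libraries that the rule did not use gave a second look at the same regions. The SmoM2-Sox9cKO libraries share the transgene and the gate with SmoM2, and their strain is not stated in the labels. They were open at 73.5%, 76.5% and 51.6% of gained regions and at 29.8%, 17.4% and 24.8% of lost regions, against 68.6%, 63.3% and 60.7% of all regions. All 3 were open at 3917 gained regions (45.0%) and at 311 lost regions (7.97%), against 52.6% of all regions. None was open at 1156 gained (13.3%) and 2216 lost regions (56.8%), against 23.8% of all regions. SmoM2-Sox9cKO library 3 stood below the other two for gained regions. It had 0 intervals at the Y-linked genes, against 8 and 10 in libraries 1 and 2, and the part of this in the difference was not tested. The Embryo libraries, from Krt8YFP esophagus at embryonic day 13 sorted on YFP, had shorter lists. They were open at 4.25% and 1.62% of gained and at 2.95% and 0.923% of lost regions, against 18.1% and 11.2% of all regions.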

How the data were processed

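ATAC-seq interval lists of 3 SmoM2 and 3 WT libraries of mouse esophagus were compared, and those of 3 SmoM2-Sox9cKO and 2 Embryo libraries were used to look up the same regions. Per the submitters' processing notes, Trimmomatic, Bowtie2, Picard, MACS2 and deepTools were used with GRCm38/mm10, without versions. Each list held 10 columns without a header. The score, the fold enrichment, and the −log10 p and −log10 q values of each interval were deposited by the authors, who called peaks with MACS2 per the submitters' processing notes. Here the −log10 p served to rank intervals within a list and the −log10 q (at least 5) for a stricter list. Read depth per library is unknown, because no source used here states it, and no counting interval is given.

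Intervals listed more than once, for each of their summits, were used once. RefSeq's GRCm38.p6 table gave 21631 protein-coding genes, and 102321 regions (89.9%) lay within 100 kb of one. A locus took the gene with the largest overlap, then the shortest gene, then the nearest. Start sites and promoter sequences came from RefSeq's GRCm38.p6 table (17274 genes, with chromosome 18 not used here). Numbers of open regions per locus (mean of at least 1) and per 1 Mb window (mean of at least 5) were tested with limma 3.58.1 in R 4.3.3, with variance trend and without the robust option, on log2((open regions + 0.5)/(total + 1) × 100000), with the 6 libraries only. p-values were Benjamini-Hochberg adjusted over all loci or windows. No covariate was used. On simulated data with 14267 loci tested for this comparison, 23 of 100 loci changed 2-fold and 60 of 100 changed 4-fold were called, and 0 of 14067 unchanged ones. The simulated counts were drawn independently for each library, whereas 41.7% of the real regions were open in all 6 libraries. Spread between libraries can therefore differ from that of the real counts, and these shares describe the simulated data only. Position shares were tested with an exact two-sided permutation test over libraries in SciPy 1.17.1.

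Named loci were the up to 8 per direction with the largest log2 change among called loci with groups apart and every library open, the 10 per direction with the most gained or lost regions, up to 3 called members per family, the 5 longest runs and 5 windows per direction, the 5 best-ranked start-site regions per direction, and a fixed set of Hedgehog and epithelial genes, and some results that the rule covers are left out. Alternatives were stricter intervals, lists of equal length (69026 intervals), autosomes only, regions merged from 9 lists, 25% coverage, 2 of 3 libraries, another pseudocount (1), no filter, no scaling, a 20 kb reach, 500 kb windows, 5 kb around gene ends, Y-linked signal as a term, a replicate block, 9 libraries in one fit, and leaving out each library. The same number in both groups did not pair libraries. The members, gene families and lists were chosen with earlier results of these data known.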

Additional observations from a re-analysis of the deposited data

Results flagged for a closer look

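Intervals on chromosome Y entered no comparison of the report. At Ddx3y, Eif2s3y, Kdm5d and Uty, the SmoM2 libraries had 9, 9 and 9 intervals, a mean of 9, against 5, 0 and 0 in the WT libraries. A signal in data outside the main measurement, above the level of the WT libraries, brought this up. The sex of the mice is not given in the labels used here. With Y-linked signal as a term, 420 loci were higher and 353 lower, in place of 908 and 866, and its part in the differences was not tested beyond that.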

How the results depend on the processing

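With regions required in 2 of 3 libraries and in 0 of the other group, 14366 regions were gained and 8130 lost. Leaving out a library in turn gave 9280 to 12219 gained and 4341 to 6289 lost regions. The share of gained regions followed by a gained one was 17.2% with regions merged from 9 lists and 18.4% to 22.4% with a library left out, and that of lost regions followed by a lost one 10.6% with lists of equal length and 9.56% to 11.9% with a library left out. The gene body share, SmoM2 minus WT, turned to 0.0272 percentage points with lists of equal length. With a library left out, 537 to 747 loci were higher and 602 to 771 lower, and 327 to 409 windows higher and 287 to 354 lower. Without scaling 410 loci and 81 windows were lower. With Y-linked signal as a term, loci were 420 higher and 353 lower and windows 262 and 185. Windows of 500 kb gave 600 lower. The cause of these shifts was not tested. Same-numbered libraries deviated together by correlations of -0.032, -0.0020 and 0.081, so the replicate numbers were not taken as pairs. With the replicate block 820 loci were higher and 943 lower, and 405 windows higher and 368 lower. The block ended the calls of Epha4, Fzd2, Klf8, Krt6b, Ccnd1 and Gli2.

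Of the single loci and windows under all alternatives, 2562 values kept direction and side of the threshold, 393 lost it, 8 gained it and 22 changed sign, of which all but Cyp2c69 and Cdh5 were uncalled loci. Macrod2 turned to 0.056 without scaling and 0.058 with stricter intervals. Stricter intervals gave -0.45 for Cyp2c69, -0.0023 for Gli1, -0.10 for Epcam and 0.24 for Krt5. Lists of equal length gave 0.52 for Hhip and -0.0048 for Trp63. With Y-linked signal as a term Sox9 was at -0.38, Epcam at -0.0092 and Trp63 at -0.050. A reach of 20 kb gave -0.085 for Sox9, -0.063 for Trp63 and -0.13 for Cdh5. With 1 library left out, Macrod2 ranged over -0.24 to 0.029, Sox9 over -0.16 to 0.24, Epcam over -0.012 to 0.16, Krt5 over -0.37 to 0.049 and Trp63 over -0.048 to 0.094. Family shares with lists of equal length or stricter intervals, chosen after seeing the data, stayed within the 95% Wilson interval of the main share in 141 of 176 cases. Unknown depth, a gate that goes with genotype and 3 libraries a group limit all comparisons.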
